A study of Mus musculus with 15 samples.

Results

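The genes described here encode subunits of the Polycomb repressive complexes: Ezh1, Ezh2, Eed, Suz12 and Jarid2 of PRC2, and Bmi1, Ring1, Rnf2, Cbx2 and Cbx8 of PRC1. They were found by gene symbol, and all 10 were present among the 26263 named genes and among the 15261 genes that passed the filter on low counts. Their mRNA was measured in neural stem and progenitor cells of the mouse dorsal telencephalon, taken at E12.5 and grown as floating neurospheres in medium with EGF and FGF. Of the 15 libraries, 4 came from Kat6b knockout (Kat6b KO) cells on the C57Bl/6 background (KO_B6) and 6 from Kat6b Tg cells, which carry a Kat6b transgene on the mixed FvB/BalbC background (Tg_FvB). The controls were 3 wild-type libraries on C57Bl/6 (WT_B6, replicates 1, 2 and 4) and 2 wild-type libraries on FvB/BalbC (WT_FvB). Kat6b encodes a histone acetyltransferase. The sources used here do not give the knockout allele or the transgene's promoter. The labels give a litter and an embryo number for each culture.

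PRC2 places methyl groups on lysine 27 of histone H3 through its catalytic subunit Ezh2 or Ezh1, and needs Eed and Suz12 for that activity. PRC1 ubiquitinates histone H2A through the E3 ligases Ring1 or Rnf2, and its canonical forms bind the PRC2 mark through Cbx proteins. In the embryonic cortex both complexes keep genes of other lineages and of later stages silent, and Ezh2 and Bmi1 are known for maintaining proliferating neural progenitors.

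Library totals ran from 12336303 to 62819028 counts, and all 10 listed markers of neural stem cells and radial glia were above 1 CPM in every group, where CPM is a gene's count scaled to library size. Summed microglial markers reached at most 0.364 CPM, with C1qa and C1qb at 0 in all 15 libraries. Kat6b averaged 63.3 CPM in KO_B6, against 84.2 CPM in WT_B6, which was not called (log2 fold change -0.41, adjusted p = 0.0571); the count covers the whole gene, so it does not test the deletion itself. Kat6b averaged 243 CPM in Tg_FvB, against 53.1 CPM in WT_FvB (log2 fold change 2.19, adjusted p = 0.000238), with the lowest transgenic library, replicate 5, at 139.6 CPM. Between the wild types Kat6b was called lower in WT_FvB than in WT_B6, without overlap (log2 fold change -0.66, adjusted p = 0.0157). Sample titles of Tg_FvB read as knockouts, and 2 of its count columns (replicates 5 and 6) have wild-type headings; groups follow the genotype field. Within groups 7 library pairs were near-identical, with a biological coefficient of variation (BCV) of 0.0172 to 0.0415, among them the 3 WT_B6 pairs, KO_B6 replicates 2 and 3, and the WT_FvB pair. The other 18 pairs lay between 0.0503 and 0.275. WT_B6 replicate 1 has the litter and embryo numbers of WT_FvB replicate 2, although the labelled backgrounds differ. Where such near-identical libraries are 1 culture, p-values from treating them as separate are too small, so counts of calls are also given with them summed into 9 profiles.

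Per gene length the 10 genes spanned a wide range of levels. Ezh2 was the most abundant, averaging 69.4 CPM per kilobase over the 4 group means, followed by Bmi1 at 51.0, Rnf2 at 36.2, Suz12 at 36.0 and Eed at 26.8 CPM per kilobase. Jarid2 averaged 13.1 CPM per kilobase, and Cbx8, Cbx2 and Ring1 lay close together at 8.15, 7.15 and 6.47. Ezh1 was the least abundant at 2.28 CPM per kilobase. Read within each group, the neighbours Bmi1 and Rnf2, Eed and Jarid2, Jarid2 and Cbx8, and Ring1 and Ezh1 did not overlap in any group. Ezh2 and Bmi1 overlapped in Tg_FvB, where the lowest Ezh2 library (60.5 CPM per kilobase) lay below the highest Bmi1 library (64.1 CPM per kilobase), and were separate in KO_B6, WT_B6 and WT_FvB, and so were Suz12 and Eed. Rnf2 and Suz12 overlapped in KO_B6 and Tg_FvB and changed places between the wild types, with Suz12 above Rnf2 in WT_FvB and Rnf2 above Suz12 in WT_B6. Cbx8 and Cbx2 overlapped in KO_B6 and Tg_FvB, and Cbx2 and Ring1 overlapped in every group except WT_FvB, so these neighbours did not differ beyond their spread there. Rnf2 varied least between groups, with its highest group mean 1.10 times its lowest, and Ring1 (1.86), Ezh1 (1.83) and Jarid2 (1.77) varied most.

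**Figure D1:**
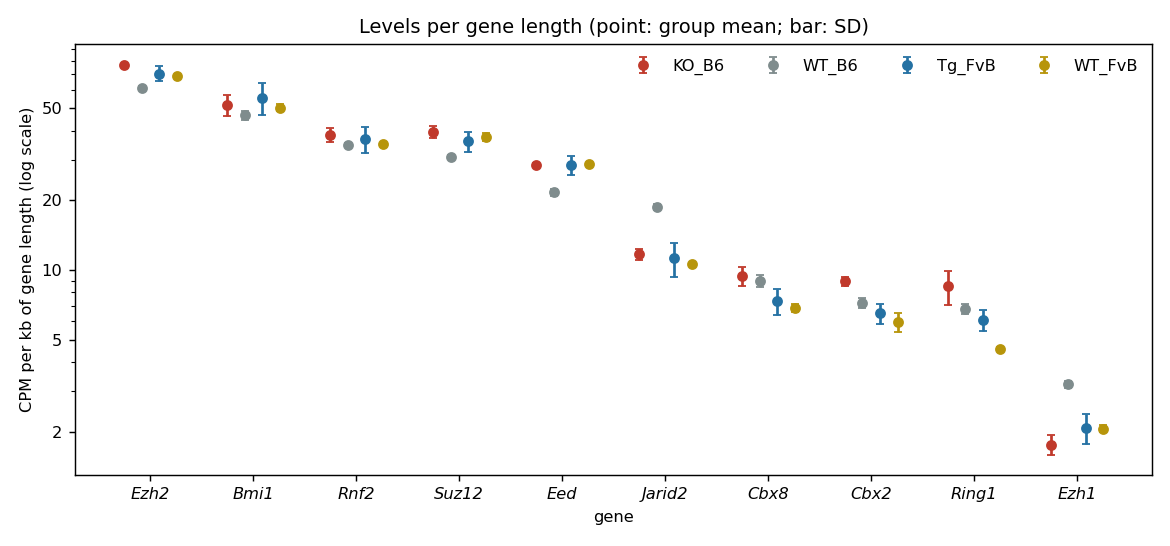
Mean level of each Polycomb gene in CPM per kilobase of gene length (log axis), with bars giving the SD over the libraries of KO_B6 (n = 4), WT_B6 (n = 3), Tg_FvB (n = 6) and WT_FvB (n = 2). Ezh2 leads in every group and Ezh1 is lowest in every group, and the separation of WT_B6 from the other groups is visible for Ezh1, Jarid2 and Eed.

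The first comparison asked how loss of Kat6b bears on these mRNAs. In KO_B6 the PRC2 core genes Ezh2, Eed and Suz12 rose to 1.25 to 1.32 times, while Ezh1 fell to 0.547 times and Jarid2 to 0.624 times their WT_B6 means. Of PRC1, Ring1 and Cbx2 rose to 1.25 and 1.24 times, and Bmi1, Rnf2 and Cbx8 were not called. In all, 7 of the 10 genes were called by edgeR's quasi-likelihood test at a Benjamini-Hochberg adjusted p under 0.05, 5 higher and 2 lower. Among all genes tested 45.8% were called, 24.8% higher and 20.9% lower, so being called did not set a gene apart from genes in general. The median log2 fold change was 0.23 over the 10 genes and 0.02 over all genes tested. In bulk RNA, a change in the share of cells that express a gene and a change in mRNA per cell cannot be told apart.

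Ezh2, the catalytic subunit that prevails in dividing cells, had 207, 206, 207 and 200.4 CPM in KO_B6, against 162, 162 and 167 CPM in WT_B6. Every knockout library was above every wild-type one, and the log2 fold change was 0.33 (SE 0.06, adjusted p = 0.000863). Ezh1, the paralog associated with non-dividing cells and with weaker methyltransferase activity, had 8.35, 6.88, 6.76 and 7.49 CPM in KO_B6, against 13.1, 14.0 and 13.3 CPM in WT_B6. The groups did not overlap here either, in the opposite direction (log2 fold change -0.87, SE 0.12, adjusted p = 6.94e-05).

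Eed, which reads the trimethyl mark and stimulates the enzyme, had 60.4, 58.7, 57.6 and 58.4 CPM in KO_B6, against 42.9, 45.7 and 45.2 CPM in WT_B6. The 4 knockout libraries lay within a narrow band above all wild types (log2 fold change 0.40, SE 0.07, adjusted p = 0.000516). Suz12, the scaffold of the core complex, had 178, 174, 183 and 158 CPM in KO_B6, against 132, 134 and 138 CPM in WT_B6. Replicate 4 was the lowest of the knockout libraries and still above the wild types (log2 fold change 0.36, SE 0.08, adjusted p = 0.00234). Jarid2, an accessory subunit that helps to recruit PRC2 and stimulates it, had 77.3, 69.5, 68.9 and 72.5 CPM in KO_B6, against 119, 115 and 113 CPM in WT_B6. All knockout libraries were well below the wild types, with a log2 fold change of -0.68 (SE 0.11, adjusted p = 0.000227).

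Promoter sequences of these 5 PRC2 genes are shown because 3 of them rose and 2 fell together. Each holds 250 bases before to 50 bases after a transcription start, 5′ to 3′ on the gene's strand, from RefSeq on GRCm38.p6. Capitals mark a match to an E2F-type motif, searched as TTTCCCGC, TTTCGCGC, TTTGCCGC or TTTGGCGC on both strands, where matches on opposite strands may overlap. The windows were chr6:47594981-47595280 (minus strand) for Ezh2, chr11:79992856-79993155 (plus) for Suz12, chr7:89980927-89981226 (minus) for Eed, chr11:101226414-101226713 (minus) for Ezh1 and chr13:44730524-44730823 (plus) for the upstream of the 2 promoters listed for Jarid2.
Ezh2: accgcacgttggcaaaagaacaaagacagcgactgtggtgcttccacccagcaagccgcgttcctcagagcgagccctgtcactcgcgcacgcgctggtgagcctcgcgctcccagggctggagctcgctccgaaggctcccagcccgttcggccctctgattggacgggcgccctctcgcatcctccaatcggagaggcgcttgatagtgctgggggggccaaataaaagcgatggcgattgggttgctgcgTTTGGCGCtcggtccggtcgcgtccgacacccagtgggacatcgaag
Suz12: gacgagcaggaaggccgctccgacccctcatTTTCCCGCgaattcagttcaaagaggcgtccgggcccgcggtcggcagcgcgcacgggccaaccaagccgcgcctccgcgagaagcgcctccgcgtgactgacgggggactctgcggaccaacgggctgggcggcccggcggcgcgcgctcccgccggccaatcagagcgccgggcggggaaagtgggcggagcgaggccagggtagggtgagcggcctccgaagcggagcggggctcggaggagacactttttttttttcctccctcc
Eed: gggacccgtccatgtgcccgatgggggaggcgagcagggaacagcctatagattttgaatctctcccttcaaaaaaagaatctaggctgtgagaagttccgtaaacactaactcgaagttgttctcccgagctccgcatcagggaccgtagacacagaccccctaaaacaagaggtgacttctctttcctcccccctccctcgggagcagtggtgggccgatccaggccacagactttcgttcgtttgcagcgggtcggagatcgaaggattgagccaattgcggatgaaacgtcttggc
Ezh1: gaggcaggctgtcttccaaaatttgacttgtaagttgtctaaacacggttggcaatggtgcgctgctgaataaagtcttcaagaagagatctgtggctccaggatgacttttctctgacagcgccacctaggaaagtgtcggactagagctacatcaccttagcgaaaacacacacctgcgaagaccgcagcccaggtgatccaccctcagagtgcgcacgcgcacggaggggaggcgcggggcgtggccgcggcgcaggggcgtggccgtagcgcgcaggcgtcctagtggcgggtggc
Jarid2: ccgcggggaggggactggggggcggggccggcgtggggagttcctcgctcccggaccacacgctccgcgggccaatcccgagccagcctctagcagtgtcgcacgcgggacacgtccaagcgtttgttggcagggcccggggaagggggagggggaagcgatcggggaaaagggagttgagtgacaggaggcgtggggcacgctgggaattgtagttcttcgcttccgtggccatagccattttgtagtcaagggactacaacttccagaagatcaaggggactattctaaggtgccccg

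A match was present in the windows of Ezh2, on the forward strand from base 254 and so just after the start used, and of Suz12, on the forward strand from base 32. The Ezh2 start in the table lies inside the annotated gene span rather than at its outer end. No match was found in the windows of Eed, Ezh1, either Jarid2 promoter, Bmi1, Ring1, Rnf2 or Cbx8, and Cbx2 was not among the promoters used. Of 32851 promoters of 300 bases 2.26% held such a match, as did 3.77% of the 14527 promoters of tested genes. Among the E2F and S phase genes listed for comparison, 8 of the 17 with a promoter held one. A match of these letters describes the sequence and shows neither binding nor its absence.

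Of the PRC1 genes, Ring1 and Cbx2 were called and the other 3 were not. Ring1, the less abundant of the E3 ligase pair per gene length, had 20.6, 14.8, 14.8 and 18.9 CPM in KO_B6, against 14.4, 13.1 and 13.8 CPM in WT_B6. Replicates 1 and 4 lay highest and replicates 2 and 3 barely exceeded the highest wild type; the log2 fold change of 0.33 (SE 0.12, adjusted p = 0.0416) was lost in 10 of 14 alternatives, among them leaving out any 1 of the 3 WT_B6 libraries, KO_B6 replicate 1 or KO_B6 replicate 4 (adjusted p = 0.0647 to 0.164). Cbx2, a chromodomain subunit that can compact chromatin, had 35.1, 33.9, 33.3 and 31.4 CPM in KO_B6, against 27.2, 25.4 and 28.1 CPM in WT_B6. The groups did not overlap (log2 fold change 0.31, SE 0.09, adjusted p = 0.00931), and the call was lost without WT_B6 replicate 2 (adjusted p = 0.0523).

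Rnf2, the main E3 ligase of PRC1, had 128, 111, 116 and 109.8 CPM in KO_B6, against 103, 108 and 106 CPM in WT_B6. The groups were separate but close, and the difference was not called (log2 fold change 0.14, SE 0.10, adjusted p = 0.282). Bmi1, the PCGF subunit that partners the ligase in canonical PRC1, had 209.8, 165, 176 and 192 CPM in KO_B6, against 162, 164 and 175 CPM in WT_B6. The groups overlapped (log2 fold change 0.15, SE 0.12, adjusted p = 0.328). Cbx8, a chromodomain paralog of Cbx2, ranged from 11.6 to 14.5 CPM in KO_B6 and from 12.1 to 13.3 CPM in WT_B6, and the knockout range enclosed that of the wild types (log2 fold change 0.07, SE 0.11, adjusted p = 0.635). The groups were separate for 8 of the 10 genes, as they were for 56.3% of all genes tested.

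**Figure D2:**
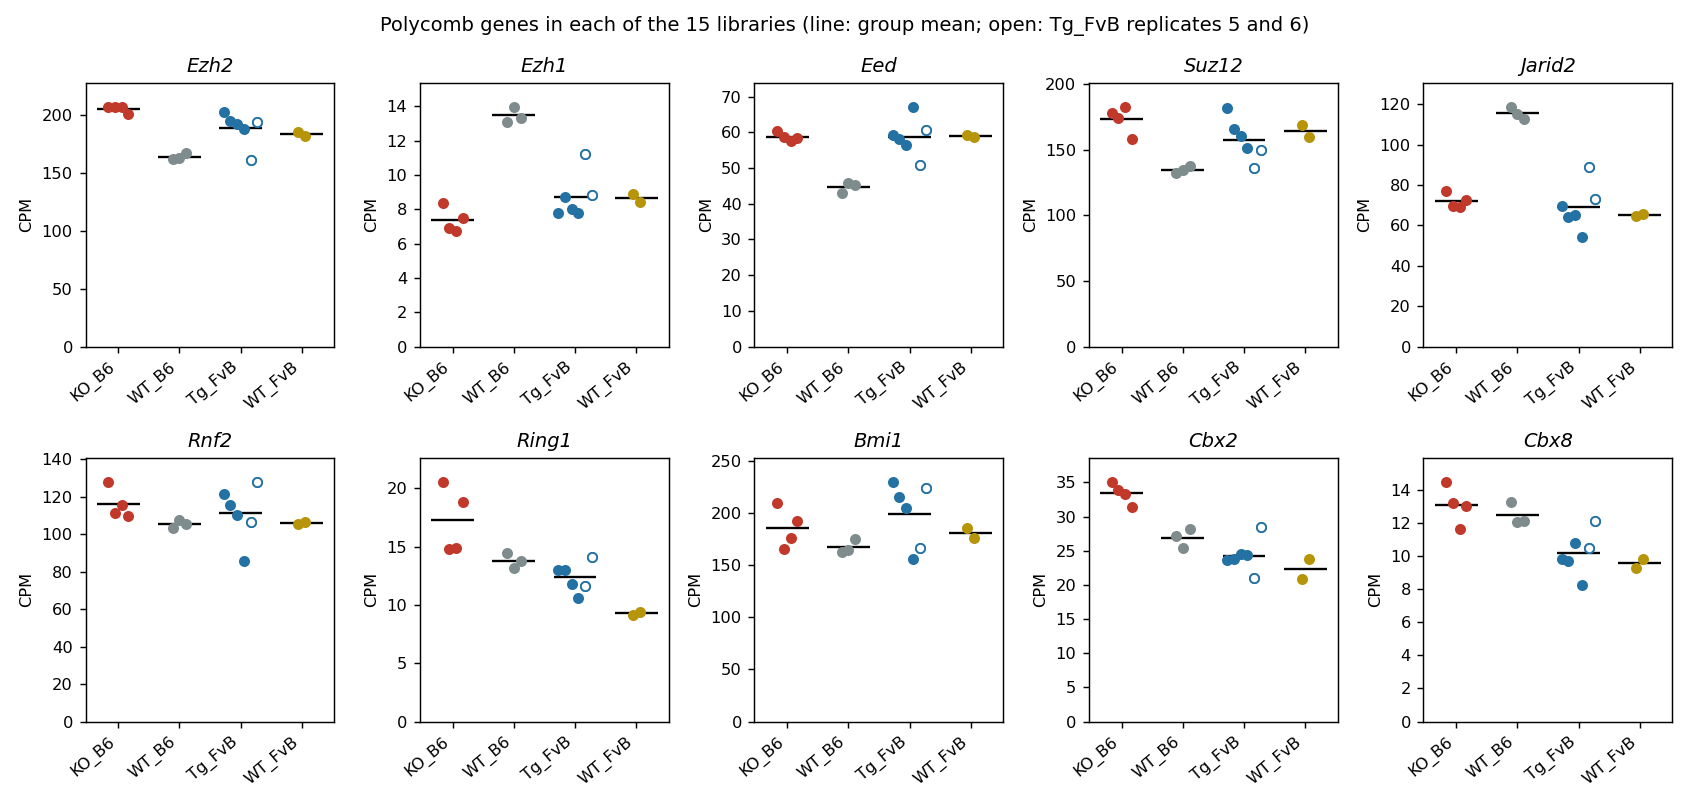
CPM (linear axis from 0) of each gene in each of the 15 libraries, 1 point per library, with a line at the group mean and open points for Tg_FvB replicates 5 and 6. Ezh1 and Jarid2 are lower in all 4 KO_B6 libraries than in the 3 WT_B6 libraries, Ezh2, Eed and Suz12 are higher, and in the FvB/BalbC pair of groups only the Ring1 points separate.

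Litters 843 and 929 each gave 2 knockout cultures and 1 wild-type culture, so the direction could be read within a litter. The near-identical libraries cross these litter labels, since WT_B6 replicate 2 (litter 843) and replicate 4 (litter 929) had a BCV of 0.0172 and KO_B6 replicate 2 (litter 843) and replicate 3 (litter 929) had a BCV of 0.0268, so the 2 litters may not be independent. In litter 843 Ezh1 had 8.35 and 6.88 CPM in KO_B6, against 14.0 CPM in WT_B6, and in litter 929 it had 6.76 and 7.49 CPM in KO_B6, against 13.3 CPM in WT_B6. Jarid2 was likewise lower in the knockout cultures of both litters, and Ezh2, Eed, Suz12, Bmi1, Ring1, Rnf2 and Cbx2 were higher in both. For Bmi1 the margin was small, with the lowest knockout at 165.4 CPM, against 164.4 CPM in WT_B6, in litter 843. In litter 929 it was 176.4 CPM, against 175.1 CPM in WT_B6. With 1 wild-type library a litter such separation is a weak reading, and its share over all genes was not computed. Cbx8 was higher in litter 843 and overlapped in litter 929. With near-identical libraries summed, WT_B6 becomes 1 profile and KO_B6 becomes 3, and edgeR then called 0 of the 10 genes, with 5 at an unadjusted p under 0.05. The adjusted p was then 0.109 for Ezh1, 0.142 for Jarid2, 0.182 for Eed, 0.204 for Ezh2 and 0.208 for Suz12, while over the 14 alternatives the log2 fold change of Ezh1 stayed between -0.96 and -0.84 and that of Jarid2 between -0.74 and -0.66.

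The ratio of paired paralogs was compared within each library. Per gene length, the Ezh2 to Ezh1 ratio was 5.28, 5.56, 5.59 and 5.40 on the log2 scale in KO_B6, against 4.28, 4.19 and 4.30 in WT_B6. All knockout cultures were above the wild types, with means of 5.46 ± 0.14 in KO_B6 and 4.26 ± 0.06 in WT_B6 (SD, n = 4 and n = 3), or 43.9 times and 19.1 times as much Ezh2 as Ezh1. The difference of 1.20 gave p = 0.0286 in an exact 2-sided permutation test, the smallest that 35 splits allow, and an adjusted p of 0.107 over the 9 ratio tests. The permutation treats near-identical libraries as separate. Summed, they leave 3 KO_B6 profiles against 1 of WT_B6, so the permutation p-values are too small where such libraries are 1 culture. The Rnf2 to Ring1 ratio averaged 2.19 ± 0.20 in KO_B6 and 2.36 ± 0.10 in WT_B6 on the log2 scale, with overlapping libraries (exact permutation p = 0.257). The Cbx2 to Cbx8 ratio averaged -0.07 ± 0.12 in KO_B6 and -0.32 ± 0.10 in WT_B6 on the log2 scale, a difference of 0.25 without overlap (exact permutation p = 0.0286, adjusted p = 0.107). None of the 9 tests could pass the adjusted threshold. The smallest exact permutation p-values that the splits allow were 0.0286, 0.0357 and 0.1 in the 3 comparisons, too large for 9 tests. The missing calls therefore carry no conclusion.

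**Figure D3:**
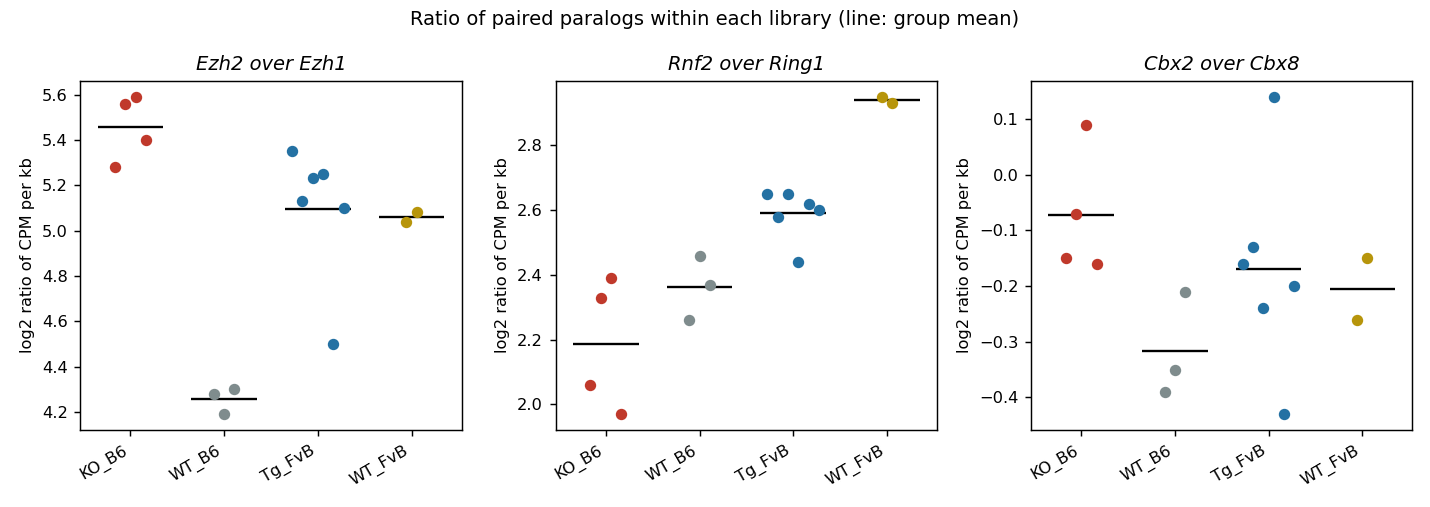
Log2 ratio of CPM per kilobase between paired paralogs in each library (points) with the group mean (line). The Ezh2 to Ezh1 ratio is 5.28 to 5.59 in KO_B6, above the 4.19 to 4.30 of WT_B6, and the Rnf2 to Ring1 ratio is 2.44 to 2.65 in Tg_FvB, below the 2.93 and 2.95 of WT_FvB.

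The second comparison asked what raised Kat6b mRNA does to the same genes. None of the 10 was called in Tg_FvB against WT_FvB by edgeR's quasi-likelihood test, where 1.84% of all genes were called (0.681% higher and 1.16% lower), nor by DESeq2. Ring1 alone had an unadjusted p under 0.05. It ranged from 10.6 CPM through a median of 12.4 to 14.1 CPM in the 6 Tg_FvB libraries, against 9.16 and 9.39 CPM in WT_FvB. All transgenic libraries were above both wild types, and 16.0% of all genes tested had groups that did not overlap. The log2 fold change of Ring1 was 0.42 (SE 0.14, adjusted p = 0.132; its unadjusted p in edgeR's quasi-likelihood test was 0.00917). Without Tg_FvB replicate 4 Ring1 was called (log2 fold change 0.46, adjusted p = 0.0452).

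The PRC2 genes differed little between group means here. Ezh2 ranged from 161 CPM through a median of 192 to 202 CPM in Tg_FvB, against 185 and 182 CPM in WT_FvB (log2 fold change 0.04, SE 0.07). Ezh1 ranged from 7.76 CPM through a median of 8.37 to 11.2 CPM in Tg_FvB, against 8.86 and 8.43 CPM in WT_FvB (log2 fold change 0.02, SE 0.14). Both wild types lay inside the transgenic range for each gene. Jarid2 ranged from 54.4 CPM through a median of 67.5 to 89.0 CPM in Tg_FvB, against 64.8 and 65.5 CPM in WT_FvB (log2 fold change 0.09, SE 0.12). Eed ranged from 50.7 CPM through a median of 58.6 to 67.2 CPM in Tg_FvB, against 59.1 and 58.7 CPM in WT_FvB (log2 fold change -0.01, SE 0.08). Suz12 ranged from 136 CPM through a median of 156 to 181 CPM in Tg_FvB, against 169 and 159.7 CPM in WT_FvB (log2 fold change -0.06, SE 0.09). For these as well the wild types lay within the spread of the transgenic libraries.

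Among the transgenic libraries replicate 5 stood apart, with the lowest Ezh2 (161 CPM), Eed (50.7 CPM) and Suz12 (136 CPM) and the highest Ezh1 (11.2 CPM) and Jarid2 (89.0 CPM). Its Ezh2 to Ezh1 ratio was 4.50 on the log2 scale, against 5.10 to 5.35 in the other Tg_FvB libraries. It also had the lowest Kat6b of that group, and its count column is headed as a wild type. Without replicates 5 and 6 the log2 fold changes were -0.10 for Ezh1 and -0.05 for Jarid2, and none of the 10 genes was called. Of the remaining genes, Bmi1 ranged from 156 CPM through a median of 210.0 to 230.4 CPM in Tg_FvB, against 185 and 176 CPM in WT_FvB. Rnf2 ranged from 85.9 to 128 CPM, Cbx2 from 21.0 to 28.4 CPM and Cbx8 from 8.23 to 12.1 CPM in Tg_FvB, against 105 and 106 CPM of Rnf2, 20.9 and 23.8 CPM of Cbx2 and 9.30 and 9.84 CPM of Cbx8 in WT_FvB. The groups overlapped for all 4 of these genes.

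The Rnf2 to Ring1 ratio averaged 2.59 ± 0.08 in Tg_FvB and 2.94 ± 0.02 in WT_FvB on the log2 scale (SD, n = 6 and n = 2), or 6.02 times and 7.67 times as much Rnf2 as Ring1. The difference of -0.35 gave p = 0.0357 in an exact permutation test, the smallest that 28 splits allow, and an adjusted p of 0.107. Here too near-identical libraries were treated as separate, and summed they leave 4 Tg_FvB profiles against 1 of WT_FvB. The Ezh2 to Ezh1 ratio averaged 5.09 ± 0.31 in Tg_FvB and 5.06 ± 0.03 in WT_FvB on the log2 scale (exact permutation p = 0.857). Litter 844 held both genotypes on this background, with Tg_FvB replicates 1 and 2. There Ezh2, Bmi1, Ring1 and Rnf2 were higher in both Tg_FvB cultures than in both WT_FvB cultures, and the other 6 genes overlapped. These Tg_FvB libraries were near-identical (BCV 0.0415), as were the WT_FvB libraries (BCV 0.0316), so the reading is close to 1 profile against 1. The share of all genes separated in this way within the litter was not computed. Litter 873 held transgenic cultures only.

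A direct test of the knockout effect minus the transgene effect called 5 of the 10 genes, where 37.3% of all genes were called (19.6% higher and 17.8% lower). Each effect was measured on its own background against its own wild types, so genotype and background cannot be told apart in this contrast. The difference of log2 fold changes was -0.89 for Ezh1 (SE 0.18, adjusted p = 0.00228) and -0.77 for Jarid2 (SE 0.17, adjusted p = 0.00297). It was 0.40 for Eed (SE 0.11, adjusted p = 0.00837), 0.42 for Suz12 (SE 0.12, adjusted p = 0.0122) and 0.29 for Ezh2 (SE 0.09, adjusted p = 0.0252). All 5 are PRC2 genes, and the 5 PRC1 members were not called, with differences between -0.09 and 0.19. Of 10 further canonical PRC1 subunits, listed below, 3 were called higher and 1 lower in this contrast. Of 16 variant PRC1 subunits 7 were higher and 2 lower, and of 7 further PRC2 subunits tested 5 were higher. Calls in this contrast were thus not particular to PRC2. The Ezh2 call was lost without any 1 of WT_B6 replicates 1 and 2, KO_B6 replicates 2 and 3 or either WT_FvB library (adjusted p = 0.0525 to 0.0968), and the Suz12 call was lost without WT_FvB replicate 1 (adjusted p = 0.068). With litter as a covariate the Ezh1 and Jarid2 calls remained, at adjusted p of 0.0332 and 0.0445. Litter 873 holds transgenic cultures only, so the litter-adjusted transgene effect comes from litter 844 alone. There it rests on near-identical libraries within each group, close to 1 profile against 1. The litter setting therefore does not decide which of these calls hold. With near-identical libraries summed none of the 10 was called, with 3 at an unadjusted p under 0.05, and the lowest adjusted p was 0.247.

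**Figure D4:**
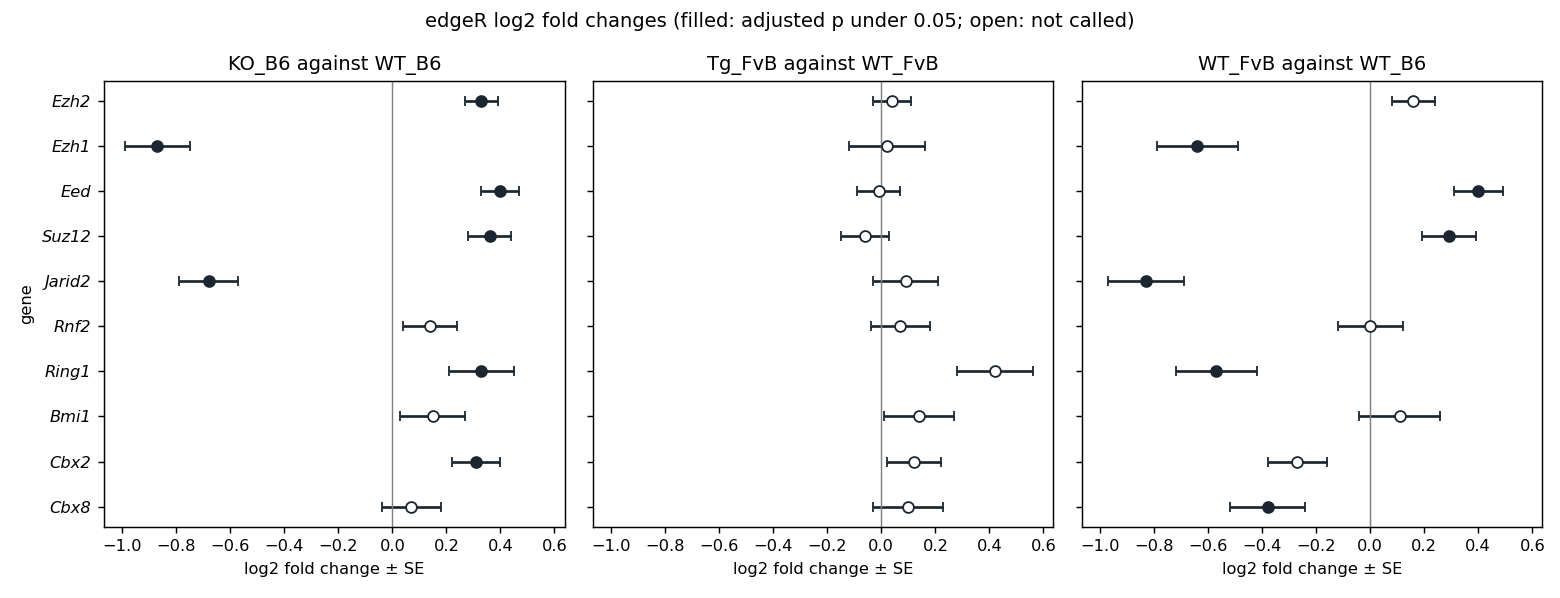
Log2 fold change of each gene with its standard error in the 3 comparisons of groups, filled where the adjusted p was under 0.05. In KO_B6 against WT_B6, 7 of the 10 are called (the 5 PRC2 genes, Ring1 and Cbx2), none of the 10 in Tg_FvB against WT_FvB, and 6 in WT_FvB against WT_B6.

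The wild types of the 2 backgrounds also differed in some of these genes. In WT_FvB against WT_B6, 6 of the 10 were called, where 48.9% of all genes were called (25.4% higher and 23.5% lower): Eed (log2 fold change 0.40) and Suz12 (0.29) were higher, and Jarid2 (-0.83), Ezh1 (-0.64), Ring1 (-0.57) and Cbx8 (-0.38) were lower. Ezh2 (0.16, adjusted p = 0.0868) and Cbx2 (-0.27, adjusted p = 0.0531) were not called, and Bmi1 and Rnf2 differed by 0.11 and 0.00 on the log2 scale. Ezh1 averaged 8.65 ± 0.306 CPM in WT_FvB and 13.5 ± 0.461 CPM in WT_B6 (SD, n = 2 and n = 3), and KO_B6 averaged 7.37 ± 0.726 CPM. Jarid2 averaged 65.2 ± 0.482 CPM in WT_FvB and 116 ± 3.13 CPM in WT_B6, and KO_B6 averaged 72.1 ± 3.82 CPM. In mean log2 CPM WT_FvB lay nearer to KO_B6 than to WT_B6 for 6 of the 10 genes, namely Ezh1, Ezh2, Eed, Suz12, Jarid2 and Bmi1, a position held by 62.8% of all genes tested. Ezh2 in WT_FvB, at 7.52 log2 CPM, was about midway between 7.68 in KO_B6 and 7.36 in WT_B6. The 2 WT_FvB and 3 WT_B6 libraries did not overlap for 9 of the 10 genes, as they did not for 78.3% of all genes tested. For Ring1, Cbx2 and Cbx8 the WT_FvB mean lay on the far side of WT_B6. The comparison shares its WT_B6 libraries with the knockout comparison, so both sets of values are given side by side only.

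The Ezh1, Jarid2 and Eed calls were kept without any 1 of the 5 libraries. Each omission leaves a near-identical library in the group, so it does not show that a call rests on more than 1 culture. The Cbx8 call was lost without any 1 of the 5 libraries (adjusted p = 0.0537 to 0.168), the Suz12 call without WT_B6 replicates 1 or 2 or either WT_FvB library (adjusted p = 0.0534 to 0.146), and the Ring1 call without WT_FvB replicate 1 (adjusted p = 0.0535). With litter as a covariate Jarid2 and Eed stayed called, and the calls of Ezh1 (adjusted p = 0.0612), Suz12 (adjusted p = 0.0691), Ring1 (adjusted p = 0.0532) and Cbx8 (adjusted p = 0.093) were lost. Only litter 844 holds both wild-type groups, so the litter-adjusted contrast rests on WT_B6 replicate 1 alone. That library has the litter and embryo numbers of WT_FvB replicate 2, so its litter label is in doubt. The litter setting therefore does not decide whether these calls hold. With the 5 libraries reduced to 1 profile a group, none was called and 1 had an unadjusted p under 0.05, with the lowest adjusted p at 0.159 for Jarid2. Within litter 844 the labels place cultures of both backgrounds, and there the 2 WT_FvB cultures had 8.86 and 8.43 CPM of Ezh1, against 13.1 CPM in WT_B6 replicate 1. Jarid2 in that litter had 64.8 and 65.5 CPM in WT_FvB, against 119 CPM in WT_B6.

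The other subunits and the enzymes that remove the marks were read from lists chosen by their known roles, beside the 24.8% higher and 20.9% lower among all genes tested in KO_B6. Of 8 further PRC2 subunits 7 were tested, and 4 were higher in KO_B6 with none lower (median log2 fold change 0.31). These were the Polycomb-like proteins Phf19 (0.71, adjusted p = 0.000166), Phf1 (0.54, adjusted p = 0.00106) and Mtf2 (0.31, adjusted p = 0.000732), which link PRC2 to DNA and to histone marks, and the histone chaperone Rbbp7 (0.45, adjusted p = 0.000242). Phf19 averaged 25.8 CPM in KO_B6 and 15.8 CPM in WT_B6. Ezhip, an inhibitor of PRC2, averaged 0.0635 CPM in KO_B6 and 0.149 CPM in WT_B6 and was not tested.

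Of 10 further canonical PRC1 subunits, 2 were higher and 2 lower in KO_B6 (median log2 fold change 0.00), a share near that of all genes (45.8% called). The sex comb on midleg family members Scml4 (1.79, adjusted p = 0.00068) and Scml2 (0.79, adjusted p = 0.000366) were higher, and Pcgf2, a close paralog of Bmi1 (-0.56, adjusted p = 0.0104), and the Polyhomeotic protein Phc2 (-0.38, adjusted p = 0.00027) were lower. Scml4 averaged 5.02 CPM in KO_B6 and 1.44 CPM in WT_B6. Of 16 subunits of variant PRC1, which acts without Cbx proteins, 9 were higher and 2 lower (median 0.20). The largest log2 fold changes were those of Pcgf6 (0.67, adjusted p = 9.51e-05), Pcgf5 (0.65, adjusted p = 0.000447), Fbrsl1 (-0.57, adjusted p = 6.27e-05) and Rybp (0.52, adjusted p = 7.74e-05).

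Of 11 genes for removal of Polycomb marks, 2 were higher and 3 lower in KO_B6 (median log2 fold change 0.03), again a share near that of all genes. The lysine 27 demethylases Kdm6a (-0.55, adjusted p = 0.00267) and Kdm6b (-0.34, adjusted p = 0.0179) were both lower, and the Kdm6b call was lost with litter as a covariate (adjusted p = 0.132) and without WT_B6 replicate 1 (adjusted p = 0.0992). Mbd5 (-0.50, adjusted p = 0.000187), which can join the H2A deubiquitinase complex, was lower, and Foxk2 (0.43, adjusted p = 0.000108), a partner of the same complex, was higher. Kdm6a averaged 61.5 CPM in KO_B6 and 90.1 CPM in WT_B6. With near-identical libraries summed, no gene of these 4 lists was called, at lowest adjusted p of 0.13 for the PRC2 list, 0.135 for canonical PRC1, 0.105 for variant PRC1 and 0.134 for the removers.

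In Tg_FvB a single gene of the same 4 lists was called, out of 7, 10, 16 and 11 genes tested. Among all genes tested 1.84% were called, so 1 call did not set these lists apart. Pcgf5, a subunit of a variant PRC1, had 12.6, 12.8, 14.0, 14.0, 10.3 and 10.2 CPM in Tg_FvB, against 18.1 and 18.3 CPM in WT_FvB. All transgenic libraries were below both wild types (log2 fold change -0.57, SE 0.12, adjusted p = 0.0309). These groups did not overlap for 16.0% of all genes tested. In the knockout comparison Pcgf5 had 12.7, 12.8, 13.1 and 11.5 CPM in KO_B6, against 8.01, 7.72 and 8.21 CPM in WT_B6. The wild types differed from each other (18.2 CPM in WT_FvB and 7.98 CPM in WT_B6, log2 fold change 1.19, adjusted p = 3.91e-05). The transgenic call was lost without either WT_FvB library, without Tg_FvB replicate 1 or 2, with litter as a covariate, with only the 2 groups in the fit, and with near-identical libraries summed.

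A list of 23 genes of E2F and S phase, such as replication licensing factors and enzymes of nucleotide synthesis, was read beside the PRC2 genes. In KO_B6 all 23 were higher (median log2 fold change 0.70), led by E2f1 (1.13, adjusted p = 2.94e-05), Tyms (1.11, adjusted p = 1.57e-05), Cdc6 (1.00, adjusted p = 1.11e-05) and Ccne2 (0.97, adjusted p = 0.000733). Their summed level was 3226 to 3788 CPM in KO_B6, against 2203 to 2272 CPM in WT_B6. In Tg_FvB none of the 23 was called by edgeR, with 5 at an unadjusted p under 0.05 (median -0.17), and their sum was 2484 to 3468 CPM in Tg_FvB, against 3336 and 3343 CPM in WT_FvB, with the lowest sum in replicate 5. Without Tg_FvB replicate 4, edgeR called 5 of the 23 lower (Cdc6, Mcm4, Mcm5, Cdt1 and Pola1; lowest adjusted p = 0.00648). In WT_FvB against WT_B6, 21 of the 23 were higher (median 0.67). With near-identical libraries summed none of the 23 was called in KO_B6, at a lowest adjusted p of 0.0955. Summed markers of astrocytes were 385 to 673 CPM in KO_B6, against 795 to 805 CPM in WT_B6, and those of the oligodendrocyte lineage were 1872 to 2205 CPM in KO_B6, against 2340 to 2457 CPM in WT_B6. Of the 7 markers of neurons and intermediate progenitors, Dcx (13.9 CPM in KO_B6, against 38.5 CPM in WT_B6; adjusted p = 0.000543) and Tubb3 (8.79 CPM in KO_B6, against 25.1 CPM in WT_B6; adjusted p = 0.000108) were lower and Neurod1 was higher, at 0.687 CPM in KO_B6, against 0.101 CPM in WT_B6. Of the other marker lists, 4 of 5 astrocyte and 3 of 6 oligodendrocyte lineage genes were lower in KO_B6, and of the 10 stem cell and radial glia genes 5 were lower and 1 (Nes) higher. In Tg_FvB the summed astrocyte markers were 647 to 802 CPM, against 940 and 953 CPM in WT_FvB, and those of the oligodendrocyte lineage were 1540 to 2284 CPM, against 1755 and 1765 CPM in WT_FvB. There Gfap (35.3 CPM in Tg_FvB, against 158 CPM in WT_FvB), Aqp4 (log2 fold change -0.93) and S100b (-0.68) were lower, and Sox10 (1.20), Gpr17 (1.33), Rbfox3 (2.57) and Neurod1 (3.48) were higher. Rbfox3 and Neurod1 were near the floor in WT_FvB, at 0.358 and 0.0474 CPM, against 2.06 and 0.564 CPM in Tg_FvB. None of these calls in Tg_FvB was made without either 1 of the WT_FvB libraries, and with near-identical libraries summed no gene of the 4 marker lists was called in KO_B6 or Tg_FvB. The part of proliferation or of cell composition in the Polycomb values was not tested.

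**Figure D5:**
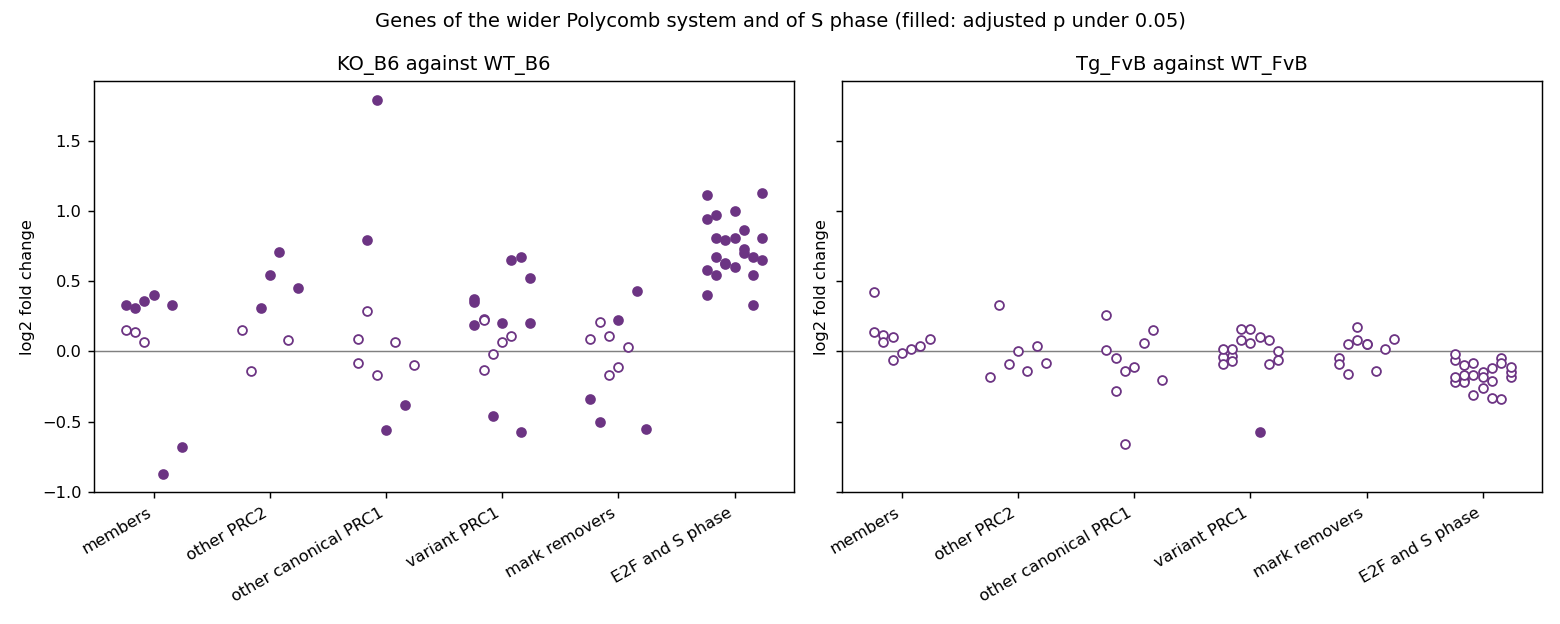
Log2 fold change of each tested gene of the Polycomb lists and of the E2F and S phase list in KO_B6 against WT_B6 (left) and Tg_FvB against WT_FvB (right), filled where the adjusted p was under 0.05. All 23 E2F and S phase genes lie above 0 on the left, and Pcgf5, at -0.57, is the one filled point on the right.

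Classical Polycomb targets were read as well. The 39 Hox genes, textbook targets of both complexes, were at or near 0: 28 had no count in any library, none passed the filter, and all of them together had 30 counts over the 15 libraries. The highest summed Hox level of a library was 0.131 CPM (5 counts, in KO_B6), below the 0.243 CPM that 3 counts represent in the shallowest library, so differences between groups below such levels were not detectable at this depth. The Cdkn2a locus, which Bmi1 is known to repress in neural stem cells, encodes inhibitors of proliferation. Cdkn2a averaged 11.7 ± 1.22 CPM in KO_B6 and 8.52 ± 0.211 CPM in WT_B6 (log2 fold change 0.45, adjusted p = 0.0126), with no overlap, and with near-identical libraries summed it was not called (lowest adjusted p of the locus 0.318). It averaged 10.7 ± 1.72 CPM in Tg_FvB and 8.84 ± 0.453 CPM in WT_FvB, which was not called (adjusted p = 0.322). Cdkn2b averaged 14.5 ± 1.59 CPM in KO_B6 and 14.4 ± 0.591 CPM in WT_B6, and 26.7 ± 6.08 CPM in Tg_FvB and 38.8 ± 1.05 CPM in WT_FvB. The 6 Tg_FvB libraries lay below both WT_FvB libraries without an edgeR call (log2 fold change -0.55, adjusted p = 0.101); DESeq2 called Cdkn2b lower (adjusted p = 0.0423), as did edgeR without Tg_FvB replicate 4 (adjusted p = 0.00663), and over all alternatives the adjusted p ran from 0.00663 to 1. Cdkn2b was higher in WT_FvB than in WT_B6 (log2 fold change 1.43, adjusted p = 8.75e-05).

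The genes whose pattern over the 15 libraries was most like that of each called member were sought among 10612 genes, by the root mean square difference in centred log2 CPM. Nearest to Ezh2 were Tfam (0.0364), Clint1 (0.0367) and Papola (0.0377), and nearest to Suz12 were Nuf2 (0.0452), Pkn2 (0.0514) and Smc2 (0.0529). Eed was nearest to Thumpd1 (0.0436), Tars (0.0471) and Orc2 (0.0498). Ezh1 was nearest to Nicn1 (0.0831), Yipf2 (0.0831) and Palm (0.0874), and Jarid2 to Trak1 (0.0719), Gatd1 (0.0748) and Samd14 (0.0766). Cbx2 was nearest to Atf4 (0.069), Dpf1 (0.0782) and Mapk7 (0.0846), and Ring1 to Slc38a3 (0.111), Wnt7a (0.112) and Tbce (0.127), the loosest match of the 7. These values describe the same libraries that gave the comparisons and carry no test.

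Some counts could include reads of overlapping genes, since the sources used here do not say whether the counting used strand. On the opposite strand, Ezh2 shares 174 exonic bases with the lincRNA Gm26625, Eed shares 261 with E230029C05Rik, Suz12 shares 178 with Gm26563, and Rnf2 shares 158 with Trmt1l. Gm44282 (Ezh2), Gm45120 (Eed), Gm22213 (Jarid2) and Gm36527 (Rnf2) overlap without shared exonic bases. No annotated gene overlaps Ezh1, Bmi1, Ring1, Cbx2 or Cbx8. Cbx2 (chr11:119023019-119031275) and Cbx8 (chr11:119036303-119040913) are neighbours on opposite strands of mouse chromosome 11 (GRCm38.p6), and Cbx2 was called in KO_B6 while Cbx8 was not.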

How the data were processed

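Total RNA of 15 cultures was sequenced as 66 bp paired-end reads after TruSeq preparation, per the labels. The submitters' processing notes name bcl2fastq, featureCounts and the mm10 build, and no aligner, annotation or version is named in the sources used here. The authors deposited whole-number read counts per gene and a gene length in bases for each library. Rows without a gene name (917 per file, 0.450% to 0.545% of counts) were left out.

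Groups follow the genotype and background fields. Beyond embryo numbers nothing says that replicates are separate cultures, so p-values may measure technical spread in part. Groups were compared with the quasi-likelihood F-test of edgeR 4.0.16 (limma 3.58.1, R 4.3.3), with TMM scaling, filterByExpr at a minimum count of 10, 1 coefficient per group, all 15 libraries and Benjamini-Hochberg adjustment over 15261 genes at 0.05. CPM are TMM-scaled; levels between genes were divided by gene length. Standard errors were derived from the F statistic. All adjusted p-values are from this test unless DESeq2 (1.42.0) is named. Ratios were compared by exact 2-sided permutation tests. The scripts were tested on simulated counts.

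The members and lists were chosen with earlier results of these data known. Named were all 10 members and Kat6b, up to 4 called genes of each list with the largest log2 fold change and a mean of at least 1 CPM, every gene of a list of 2, the 3 genes most like each called member at a mean of at least 5 CPM, and overlapping genes (GENCODE vM21). Ezhip was matched by gene identifier. Alternatives were RLE scaling, no filter, DESeq2, the 2 compared groups alone, litter, a replicate block, near-identical libraries (BCV under 0.05) summed, and libraries left out.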

Additional observations from a re-analysis of the deposited data

Results flagged for a closer look

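In 20 groups of 4 or 6 libraries tested for a value far from the others, 3 were found, and chance alone flags about 1 group in 20. Ezh2 in KO_B6 replicate 4, at 200.4 CPM, lay apart from the other 3 knockout libraries, which were within 206 to 207 CPM. In Tg_FvB replicate 5 Ezh2 was 161.2 CPM, below 187 to 202 CPM in the other transgenic libraries, and Ezh1 was 11.2 CPM, above 7.76 to 8.83 CPM in the others.

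The knockout and transgene effects differed by edgeR's interaction contrast for 5 genes, where 37.3% of all genes were called. The differences of log2 fold changes were Ezh1 (-0.89), Jarid2 (-0.77), Suz12 (0.42), Eed (0.40) and Ezh2 (0.29). With litter as a covariate the edgeR calls of Ezh2 (adjusted p = 0.227), Suz12 (adjusted p = 0.152) and Eed (adjusted p = 0.0771) were lost. That setting takes the transgene effect from litter 844 alone, close to 1 profile against 1, so it does not decide whether the calls hold.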

How the results depend on the processing

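The 7 calls in KO_B6 against WT_B6 kept their direction under all 14 alternatives. Values below are edgeR counts of called genes unless stated.

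With near-identical libraries summed, KO_B6 against WT_B6 called 5 of all genes and 0 members, and the other 3 contrasts called 0 of all genes and 0 members; fewer profiles enter that fit. Tg_FvB against WT_FvB called 281 genes in the main setting, 722 with DESeq2, 10 with only the 2 groups fitted, 10 with litter as a covariate and 641 without Tg_FvB replicates 5 and 6. With litter as a covariate WT_FvB against WT_B6 called 3903 genes and 2 members, and the effect difference 2862 genes and 2 members. The litter-adjusted WT_FvB against WT_B6 contrast rests on WT_B6 replicate 1, the only WT_B6 library that shares a litter with WT_FvB. The litter-adjusted transgene effect, also within the effect difference, rests on litter 844, the only litter with both Tg_FvB and WT_FvB. Replicate numbers did not pair the samples (correlations of deviations at the same number were -0.01, 0.01 and -0.02 on C57Bl/6 and 0.14 and -0.02 on FvB/BalbC). With the replicate block, Tg_FvB against WT_FvB called 1577 genes and 1 member (Ring1, adjusted p = 0.0454), and the effect difference called 3 members. In Tg_FvB, 3 of the 23 E2F and S phase genes and Cdkn2b (adjusted p = 0.00803) were then lower. Tg_FvB replicates 3 to 6 have no WT_FvB partner in that block, so its transgene effect rests on replicates 1 and 2 alone. Those libraries are near-identical within Tg_FvB (BCV 0.0415) and within WT_FvB (BCV 0.0316), close to 1 profile against 1. The Tg_FvB calls and the effect difference with this block therefore carry no conclusion. WT_FvB against WT_B6 called 3202 genes and 2 members (Jarid2 and Eed) with that block. Each block lies within a single background, so this wild-type contrast depends on an arbitrary reference block. It does not measure the difference between the wild types, and the missing calls of Ezh1, Suz12, Ring1 and Cbx8 carry no conclusion. The cause of the other shifts was not tested.

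Leaving out 1 library gave 5582 to 7142 genes and 5 to 7 members in KO_B6 against WT_B6, 2 to 1764 genes and 0 to 1 member in Tg_FvB against WT_FvB (2 without either WT_FvB library, 59, 61 and 88 without Tg_FvB replicates 1, 2 and 3, 1764 without replicate 4 and 609 without replicate 5), 5051 to 6517 genes and 3 to 5 members in WT_FvB against WT_B6, and 3677 to 6762 genes and 3 to 5 members for the effect difference (3677 without either WT_FvB library).

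Sign changes touched only differences that were not called. For the effect difference, Bmi1 (main 0.01) took -0.17 with litter, -0.13 with the replicate block, -0.03 without Tg_FvB replicates 5 and 6, -0.01 with RLE or DESeq2, 0.00 without the filter, and between -0.07 and 0.05 (among them -0.06, -0.05 and -0.03) with 1 library left out; Cbx8 (main -0.03) took 0.08, 0.09, 0.03, 0.02 or 0.01, and Rnf2 (main 0.06) took -0.04 or -0.03, and 0.00 to 0.11 with 1 library left out. In Tg_FvB against WT_FvB, Ezh1 (main 0.02) took -0.06 or -0.10, and -0.08 to 0.05 with 1 library left out, Suz12 (main -0.06) took 0.08, Jarid2 (main 0.09) took -0.05 or 0.00, and Eed (main -0.01) took 0.00 or 0.02. Rnf2 in WT_FvB against WT_B6 (main 0.00) took -0.01 or 0.00, and Cbx8 in KO_B6 against WT_B6 (main 0.07) took -0.01 without KO_B6 replicate 1 and up to 0.12 without others. In Tg_FvB against WT_FvB the Ezh2 to Ezh1 ratio difference (main 0.03) was -0.04 with near-identical libraries summed and -0.02 to 0.15 with 1 library left out, and that of Cbx2 to Cbx8 (main 0.03) was -0.03 to 0.09. Genes below about 10 counts, such as the Hox genes, could not be compared at this depth.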

Other observations

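Summed markers of endothelium were 1.40 to 2.37 CPM over all libraries. Mesenchyme and pericyte markers summed to 8.05 to 21.2 CPM in Tg_FvB, against 15.7 to 16.9 CPM in WT_FvB, and to 6.51 to 10.9 CPM in KO_B6, against 5.87 to 6.28 CPM in WT_B6. Erythroid markers reached at most 1.06 CPM. Those of neurons and intermediate progenitors were 865 to 1101 CPM in Tg_FvB, against 972 and 1021 CPM in WT_FvB, and 1016 to 1148 CPM in KO_B6, against 1124 to 1135 CPM in WT_B6, nearly all of it Map2 (1068 CPM in KO_B6, against 1061 CPM in WT_B6).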
